A study of Mus musculus with 24 samples.

Results

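The comparison set 3 arrays of Ikaros-null (KO) cells against 3 arrays of wild-type (WT) cells of the same sorted population, LSK GFPneg-lo, which the labels call hematopoietic stem cells. These 6 arrays, chosen by their titles, are part of 24 arrays that cover 4 sorted progenitor populations in both genotypes, with 3 arrays each. LSK stands, in the field's usage, for lineage-negative cells with the Sca-1 and Kit surface proteins. The KO cells came from Ikaros-null mice of the I74 line (C57BL/6 x 129SV) that also carried the GFP reporter B-p-GFP-C (C57BL/6 x C3H). The WT cells came from wild-type mice with that reporter. GFP is driven by Ikaros regulatory sequence, and negative to very low GFP was part of the sort in both genotypes. The share of each strain in the mice behind an array, their ages, their sex and any pooling are not given in the sources used here. A difference in strain background or in the sex of the mice and the loss of Ikaros therefore cannot be told apart. The titles call the arrays biological replicates. The p-values measure the spread between replicates within a group, pooled over all 24 arrays. Fewer cells of a type and less RNA per cell cannot be told apart in sorted bulk RNA.

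The gene Ikzf1 encodes Ikaros, which binds DNA through zinc fingers at a GGGAA core, brings in chromatin remodelling complexes and can repress or activate genes. It is needed for lymphoid cells, and in blood stem cells it is known for priming lymphoid genes before any lineage is chosen. Its close relatives, such as Helios (Ikzf2) and Aiolos (Ikzf3), bind similar sequence.

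To show the DNA at the start of genes whose RNA differed most, the RefSeq promoter windows (GRCm38.p6, 250 bases before to 50 after the start, on the gene's strand) of 2 genes that rose and 2 that fell are printed here. A gene was called when its limma p-value, adjusted by Benjamini and Hochberg over all genes tested, was below 0.05, and it is said to have risen or fallen only then. Capitals mark GGGAA or its reverse complement TTCCC. Gstm2 (chr3:107986371-107986670, minus strand) and Dlk1 (chr12:109452573-109452872, plus strand) rose, and Ltb (chr17:35194257-35194556, plus strand) and Cd244a (chr1:171558943-171559242, plus strand) fell.
Gstm2: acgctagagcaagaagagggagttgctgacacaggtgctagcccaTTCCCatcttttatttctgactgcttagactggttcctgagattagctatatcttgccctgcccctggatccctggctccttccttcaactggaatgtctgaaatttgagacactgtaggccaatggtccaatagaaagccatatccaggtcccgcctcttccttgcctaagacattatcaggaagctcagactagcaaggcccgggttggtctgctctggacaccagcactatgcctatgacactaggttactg
Dlk1: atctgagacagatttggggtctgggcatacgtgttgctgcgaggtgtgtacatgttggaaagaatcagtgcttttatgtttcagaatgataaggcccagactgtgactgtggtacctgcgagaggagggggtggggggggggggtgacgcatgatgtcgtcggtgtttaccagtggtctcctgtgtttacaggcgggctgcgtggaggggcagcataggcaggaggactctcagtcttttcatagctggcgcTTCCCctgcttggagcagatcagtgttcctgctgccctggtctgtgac
Ltb: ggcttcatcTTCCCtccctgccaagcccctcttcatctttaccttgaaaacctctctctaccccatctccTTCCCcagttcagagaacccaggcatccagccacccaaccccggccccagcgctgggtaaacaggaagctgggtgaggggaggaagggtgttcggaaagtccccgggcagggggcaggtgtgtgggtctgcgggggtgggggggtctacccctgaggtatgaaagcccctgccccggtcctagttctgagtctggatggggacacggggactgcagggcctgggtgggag
Cd244a: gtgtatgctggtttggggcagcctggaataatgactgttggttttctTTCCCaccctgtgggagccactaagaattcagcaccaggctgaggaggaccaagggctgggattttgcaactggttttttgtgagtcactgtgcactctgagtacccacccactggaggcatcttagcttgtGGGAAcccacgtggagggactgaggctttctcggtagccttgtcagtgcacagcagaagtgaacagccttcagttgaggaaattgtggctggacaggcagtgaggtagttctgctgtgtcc
The letters GGGAA, searched on both strands, occurred 1 time in the windows of Gstm2 and of Dlk1 and 2 times in those of Ltb and Cd244a. Over all tested genes, 64.4% of 18109 windows held it. Windows were found for 177 of the 229 genes called higher in KO (1.26% of genes tested), and 70.5% of these 227 windows held it. For 115 of the 160 genes called lower (0.879%) there were 148 windows, of which 66.2% held it. Cdh5, Clu, Thy1, Tmem204 and Nrep, among the largest rises, had no window in the set used. The longer letters TGGGAA, which contain GGGAA, were in 31.7% of windows of genes called higher, 20.9% of those of genes called lower and 24.2% of all windows. Several windows can belong to 1 gene, and these shares are a description of letters, with no test.

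Ikzf1 RNA was low on the KO arrays. The brighter of its 2 probe sets measured 8.02, 7.23 and 7.31 on the KO arrays, against 11.36, 11.09 and 10.99 on the WT arrays, in log2 signal. The difference was -3.63 ± 0.36 (limma standard error, adjusted p = 3.28e-06), and the groups did not overlap. The second probe set measured 6.53, 6.15 and 6.09 in KO cells, against 6.21, 6.22 and 5.88 in WT cells, and its groups overlapped. Which part of the transcript each probe set reads, and whether it lies in the deleted part, was not analysed here. Helios was not called (0.22 ± 0.20 log2, adjusted p = 0.887), nor was Aiolos (0.12 ± 0.13, adjusted p = 0.926). Of 9 measured genes near Ikzf1, 1 was called, beside 2.14% of all genes. This was Fignl1, which fell by 1.29 log2 units (adjusted p = 0.0277). It lost the call without KO replicate 1 or 2 or WT replicate 1 or 3 (adjusted p = 0.104 to 0.156). The call was also lost when the 6 arrays were fitted alone (0.0613) and with the Y-linked gene Eif2s3y as a covariate (0.226).

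Of 18193 genes, 389 were called in LSK GFPneg-lo cells, which is 2.14% of the genes tested. RNA of 229 genes rose in KO cells (1.26%) and RNA of 160 fell (0.879%). Each count of list members given below is to be read beside these shares of all genes. At least 2-fold differences were found for 105 of the genes that rose and for 67 of those that fell. In 386 of the 389 the KO and WT arrays did not overlap, which held for 15.9% of all genes. The median difference over all genes was 0.03 log2. Same-numbered KO and WT arrays deviated together, though this does not show that the numbers pair them. With the replicate number as a block 844 genes were called, among them all 389. The count was 232 without WT replicate 1 and 244 without KO replicate 3.

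Arrays within a genotype correlated at r = 0.9857 to 0.9949 for KO and 0.9866 to 0.9929 for WT across genes, which are not independent replicates. Some features moved with an array or with genotype. Eif2s3y, a gene of the Y chromosome, measured 4.14, 7.99 and 4.01 in KO, against 9.92, 8.04 and 9.31 in WT, and was not called (adjusted p = 0.197). Xist, made from the inactive X, was between 13.18 and 13.36 on the KO arrays and between 12.82 and 13.23 on the WT arrays. Eif2s3y was lowest on KO replicates 1 and 3, so a difference in the sex of the mice cannot be told apart from genotype there. With the Eif2s3y level as a covariate 210 genes were called, and with KO replicate 2 as the only KO array 144 were, of which 133 are among the 389. The mean of 21 immediate early genes, which respond within minutes to handling or stimulation, was 9.28, 8.39 and 8.33 in KO, against 9.12, 8.94 and 8.93 in WT. Without KO replicate 1, which is high there, 338 genes were called. The 23 named genes that kept the call under every alternative run for them (17 for Tmem204, Gpx8 and Klhl4 and 18 for the others, those without these arrays included), were Cdh5, Nrep, Tmem204, Gstm2, Clu, Dlk1, Thy1, Spats2, Gpx8, Serpinh1, Selenom, Clec11a, Ikzf1, Dmxl2, Klhl4, Sox18, Rhoj, F2rl2, Itgb3, Mcpt8, Rtp4, Meg3 and Pmaip1.

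RNA of stem cell markers was present in both genotypes. Kit, the stem cell factor receptor used in the sort, measured 12.50, 11.63 and 11.76 in KO, against 12.74, 11.77 and 12.25 in WT. Procr, the protein C receptor that marks stem cells, measured 12.23, 11.36 and 11.28 in KO, against 11.93, 11.16 and 11.43 in WT. The groups overlapped for both, and neither was called. Hlf and Mecom, transcription factors of stem cells, were not called either (-0.59 ± 0.22 and -0.50 ± 0.25 log2). Hlf was called as lower without KO replicate 1 (adjusted p = 0.0215) and with array weights (0.00654), and Mecom with the replicate block in the 6 arrays alone (0.0371). Levels of Rag1, a recombinase of lymphoid cells, were between 3.97 and 4.38 on all 6 arrays. RMA values carry no detection call, so absence cannot be stated. Markers of B cells (3 measured of 4), T and NK cells (4 of 5), stroma (6 of 6) and mature neutrophils (5 of 5) had no called member. Of macrophage markers 1 of 4 rose, of granulocyte and monocyte markers 2 of 4 and of endothelial markers 3 of 5. Of the 6 measured stem cell markers 1 rose, Fgd5, and they averaged 10.87 to 11.40 in KO and 10.87 to 11.19 in WT. RNA of other lineages was high as well. The 7 erythroid and megakaryocyte markers, none of them called, averaged 10.46 to 10.76 in KO and 9.99 to 10.72 in WT. The 4 granulocyte and monocyte markers averaged 9.81 to 10.82 in KO and 9.03 to 9.68 in WT. The stroma marker Col1a1 measured 5.86, 6.65 and 8.32 in KO, against 5.63, 5.71 and 7.94 in WT. Col1a2 measured 9.33, 9.85 and 10.44 in KO, against 8.21, 8.98 and 10.21 in WT. Both were thus highest on replicate 3 of each genotype.

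The largest rise in RMA signal was that of Cdh5, VE-cadherin, the junction protein of endothelium. Cdh5 measured 9.85, 9.79 and 9.66 in KO, against 4.82, 4.89 and 4.82 in WT, a difference of 4.93 ± 0.13 log2 (adjusted p = 2.97e-15). Whether the WT signal lies above background cannot be stated from RMA values, so no fold is given. Its 3 KO arrays stood far above the 3 WT arrays, with little spread in either group. Thy1, a surface protein of T cells and of some stem cells, measured 10.33, 10.09 and 10.22 in KO, against 6.86, 7.34 and 7.61 in WT (2.94 ± 0.29). Tmem204, a membrane protein of endothelial junctions, measured 8.49, 9.10 and 8.90 in KO, against 5.05, 5.62 and 5.10 in WT (3.57 ± 0.35). Without probe sets ending in _x_at or _s_at, which can share sequence with other genes, another probe set gave 0.721 for Tmem204, still called. All 3 encode proteins of the cell surface or its junctions.

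Other large rises followed. Gstm2, a glutathione transferase, measured 9.71, 9.59 and 9.48 in KO, against 6.12, 6.28 and 5.82 in WT (3.52 ± 0.16, adjusted p = 4.48e-11). Clu, the secreted chaperone clusterin, measured 11.07, 11.47 and 11.33 in KO, against 8.05, 8.79 and 7.74 in WT (3.10 ± 0.21). In both, each KO array lay above each WT array. Serpinh1, a collagen chaperone, rose by 2.71 ± 0.15 log2, Gpx8, a peroxidase of the endoplasmic reticulum, by 2.73 ± 0.17, and Clec11a, a secreted growth factor, by 2.53 ± 0.19. Selenom, a selenoprotein of the endoplasmic reticulum, rose by 2.59 ± 0.29. Nrep, a small intracellular protein, measured 11.31, 11.24 and 11.59 in KO, against 7.30, 7.88 and 7.45 in WT (3.84 ± 0.37, and 1.55 with another probe set when those of shared sequence were left out), and Spats2 rose by 2.85 ± 0.30.

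**Figure D1:**
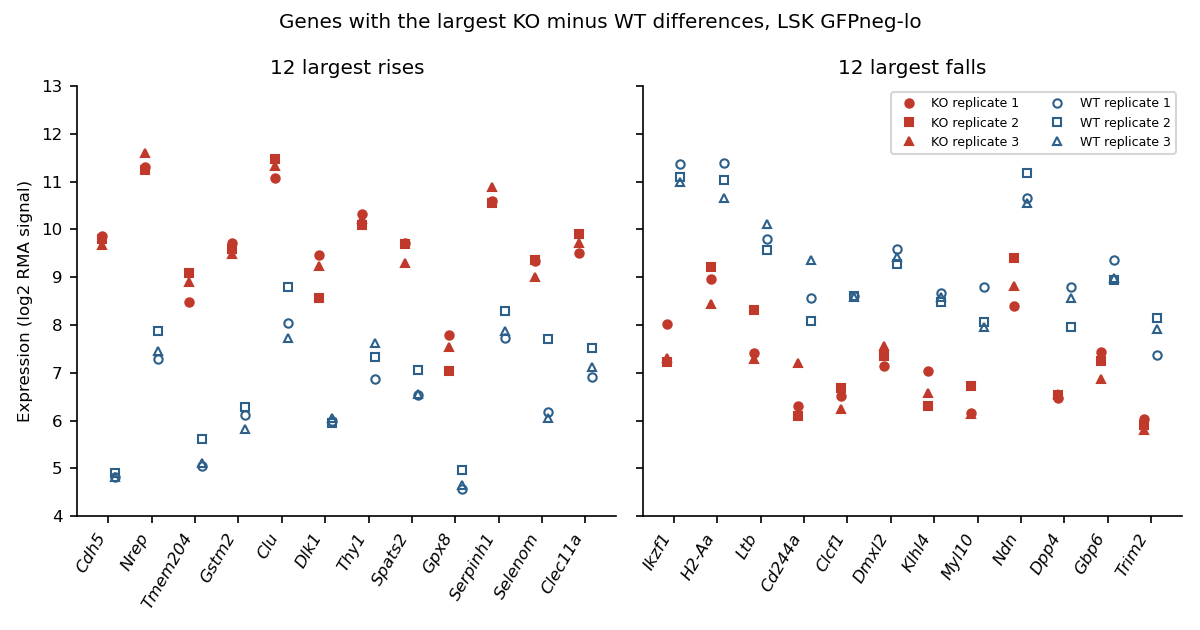
Expression of the 12 called genes with the largest rise and the 12 with the largest fall, as log2 RMA signal on each array (filled red, KO; open blue, WT; symbol shape, replicate number). The genes were chosen among those called whose KO and WT arrays do not overlap, and Cdh5 has the largest difference of them, 4.93 log2.

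The gene list of endothelium and stroma holds Cdh5. Of 28 measured, 9 rose and 0 fell, beside 1.26% and 0.879% of all genes. The median difference of the list was 0.29 log2, against 0.03 over all genes. Besides Cdh5, Rhoj, a small GTPase of endothelial cells, measured 9.29, 9.26 and 9.96 in KO, against 6.90, 7.46 and 6.61 in WT (2.52 ± 0.21). Sox18, a transcription factor of vessels, measured 8.90, 8.14 and 8.01 in KO, against 6.01, 6.70 and 6.00 in WT (2.12 ± 0.21). Both groups were apart on every array. The other risers were Col4a1 (1.11), the angiopoietin receptor family member Tie1 (0.96), Cldn5, a junction protein (0.81), the growth factor receptor Kdr (0.79), Esam, an adhesion molecule (0.54), and Nos3, a nitric oxide synthase (0.36). Cldn5 lost the call without WT replicate 1 or 3 or KO replicate 1 (adjusted p = 0.0544 to 0.0682), and Esam without these or KO replicate 2 (0.107 to 0.19). Several other defining endothelial genes did not pass the test, among them Pecam1 (-0.05 log2), Flt1 (0.00), Plvap (0.35) and Egfl7 (-0.12). The 5 endothelial markers Pecam1, Kdr, Plvap, Cldn5 and Nos3, of which 3 rose, averaged 6.87 to 7.18 on the KO arrays and 6.52 to 6.78 on the WT arrays. Whether endothelial cells had a part in the result was not tested. The number of risers was 4 without KO replicate 1 and 3 without WT replicate 1 or 3, and 3 when the 6 arrays were fitted alone.

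Stem cell surface and marker genes moved in both directions. Of 27 measured, 5 rose and 1 fell, with a median of 0.20 log2. Vwf, the platelet adhesion factor that also marks some stem cells, measured 10.41, 11.65 and 10.98 in KO, against 8.46, 10.23 and 8.33 in WT (2.01 ± 0.52, adjusted p = 0.0496). WT replicate 2 was close to the lowest KO array, and the call was lost without WT replicate 1 or 3 or KO replicate 2 or 3 (adjusted p = 0.146 to 0.258). Fgd5, a stem cell marker, measured 11.66, 10.96 and 10.80 in KO, against 10.16, 10.25 and 9.43 in WT (1.19 ± 0.26, adjusted p = 0.0168). The call of Fgd5 was lost without WT replicate 3 (0.126) or KO replicate 1 (0.11). Esam and Tie1, also of the endothelial list, and Ctnnal1 were the others that rose, and Ndn, described below with imprinted genes, fell. The difference of Ctnnal1 was -0.03 when probe sets with shared sequence were left out, against 0.71 otherwise. With 1 array left out in turn, 0 to 3 members rose: 0 without WT replicate 3 (with 2 falls), 1 without WT replicate 1 or KO replicate 2, 2 without KO replicate 1 and 3 without KO replicate 3 or WT replicate 2. None rose with the Eif2s3y level as a covariate. Of 24 stem cell transcription factors, 1 rose, Sox18, and 0 fell, with a median of -0.05 log2.

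**Figure D2:**
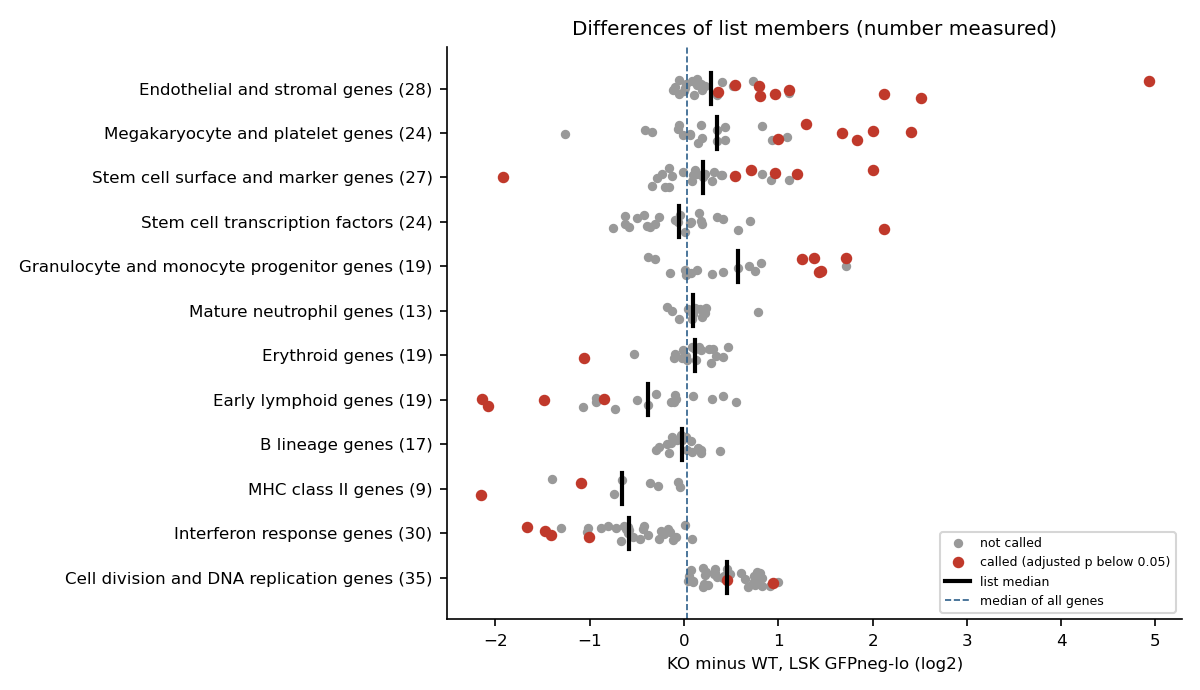
Log2 difference, KO minus WT, of each measured member of 12 gene lists (grey, not called; red, called; black bar, list median; dashed line, median of all genes at 0.03; number measured in brackets). Endothelial and megakaryocyte members extend to the right, and interferon, class II and early lymphoid members to the left.

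Genes of megakaryocytes and platelets rose for 6 of 24 measured members and fell for 0, beside 1.26% and 0.879% of all genes. Their median was 0.35 log2. Selp, the platelet adhesion protein P-selectin, measured 11.84, 11.52 and 11.43 in KO, against 9.01, 10.12 and 8.43 in WT (2.41 ± 0.28). F2rl2, a thrombin receptor, measured 8.79, 9.91 and 9.72 in KO, against 7.73, 7.64 and 7.53 in WT (1.84 ± 0.20). Neither gene's groups overlapped. Itgb3, the beta chain of the platelet fibrinogen receptor, rose by 1.67 ± 0.22. The call of Selp did not hold with another probe set (adjusted p = 0.188). Itga2b, the alpha chain that pairs with Itgb3, was just above the threshold (0.93 ± 0.24, adjusted p = 0.0517) and was called with the replicate block (adjusted p = 0.011). Other platelet genes, Pf4 (0.15 log2), Gp9 (0.35) and Ppbp (-1.27), were not called. The risers numbered 3, with 1 fall, without WT replicate 3.

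Granulocyte and monocyte progenitor genes rose for 5 of 19 measured and fell for 0, with a median of 0.57 log2. Csf1r, the receptor of macrophage colony stimulating factor, measured 9.12, 9.90 and 10.29 in KO, against 8.29, 8.03 and 8.62 in WT (1.46 ± 0.24, adjusted p = 0.00126). Cebpd, a transcription factor of myeloid cells, measured 9.29, 8.53 and 8.68 in KO, against 7.31, 7.19 and 7.87 in WT (1.37 ± 0.21). For both the KO arrays lay above the WT arrays. The granule protease genes Ctsg and Prtn3 rose by 1.43 ± 0.29 and 1.25 ± 0.27, and Mpo, another granule enzyme, was 0.08 ± 0.31 with overlapping groups. F13a1 rose by 1.72. Without KO replicate 3 the list had 2 risers, Csf1r and Cebpd. F13a1 was not among them, and Ctsg and Prtn3 lost the call (adjusted p = 0.0631 and 0.0713), and Prtn3 lost it without WT replicate 1 too (0.121). By limma none of the 13 measured genes of mature neutrophils was called, and 1 had an unadjusted p below 0.05. Of 18 macrophage and dendritic genes 3 rose, Cd68 (1.40), Apoe (1.54) and Cd14 (0.98), and 1 rose without KO replicate 1, KO replicate 3 or WT replicate 3 and 0 with the Eif2s3y level as a covariate. Mcpt8, a protease of basophils, measured 8.57, 8.53 and 8.74 in KO, against 6.73, 6.75 and 6.94 in WT (1.81 ± 0.26), alone among 13 mast cell and basophil genes, of which 3 rose with the replicate block.

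Early lymphoid genes fell for 4 of 19 measured and rose for 0, with a median of -0.38 log2. Ltb, lymphotoxin beta, whose promoter is printed above, measured 7.41, 8.32 and 7.30 in KO, against 9.80, 9.57 and 10.10 in WT (-2.15 ± 0.34, adjusted p = 0.000871). Dmxl2, a regulator of vesicle acidification, measured 7.15, 7.34 and 7.56 in KO, against 9.58, 9.28 and 9.43 in WT (-2.08 ± 0.20). Both had all KO arrays below all WT arrays. Ighm, the immunoglobulin mu chain, fell by 1.49 and Cd52, a lymphocyte surface protein, by 0.85 log2. Cd52 lost the call with each of the 6 arrays left out (adjusted p = 0.0642 to 0.217), and Ighm with each but WT replicate 1 (0.0507 to 0.168). Flt3, the receptor that marks lymphoid-primed cells, measured 10.09, 9.17 and 9.16 in KO, against 10.62, 10.05 and 10.96 in WT (-1.07 ± 0.29, adjusted p = 0.0604). Its call was made with the replicate block (adjusted p = 0.0225). Dntt and Il7r were not called (-0.49 and 0.55). The number that fell was 2 without KO replicate 2 or 3 or WT replicate 3. By limma no B lineage gene of 17 was called (1 at an unadjusted p below 0.05), and of 19 T and NK genes Thy1 rose alone.

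Interferon response genes had lower levels in KO for 28 of 30 measured, of which 4 fell by the test and 0 rose, with a median of -0.59 log2. Rtp4, a chaperone induced by interferon, measured 9.81, 9.22 and 9.39 in KO, against 11.03, 10.58 and 11.24 in WT (-1.48 ± 0.26). Ifit1, which binds viral RNA, measured 7.04, 6.88 and 6.92 in KO, against 8.44, 8.70 and 8.70 in WT (-1.67 ± 0.30). In both the KO arrays were below the WT arrays. Rsad2 (-1.41) and Oas2 (-1.01), both antiviral enzymes, were the others called. Rsad2 lost the call without WT replicate 3 or KO replicate 1 (adjusted p = 0.0825 to 0.118), and Oas2 without WT replicate 1 or 3 or KO replicate 2 or 3 (0.0627 to 0.238). Mx1 (-0.59), Irf7 (-0.67) and Xaf1 (-1.03), also induced by interferon, were not called. With the replicate block 7 members fell, and 2 fell without WT replicate 3. Gbp6, a guanylate-binding protein induced by interferon and outside the list, measured 7.44, 7.24 and 6.87 in KO, against 9.36, 8.94 and 8.98 in WT (-1.91 ± 0.30).

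All 9 measured class II antigen presentation genes had lower means in KO, and 2 fell by the test, with a median of -0.66 log2. H2-Aa, a class II chain, measured 8.97, 9.22 and 8.43 in KO, against 11.38, 11.04 and 10.66 in WT (-2.16 ± 0.47, adjusted p = 0.0159). H2-Ob, a chain of the modulator H2-O, fell by 1.10. The groups of H2-Aa did not overlap, yet the call was lost without WT replicate 1 (adjusted p = 0.0996) or KO replicate 3. None of the list fell by the test without either of these arrays or with the Eif2s3y level as a covariate, and 1 fell without KO replicate 1 or WT replicate 3. Cd74, the class II chaperone, was not called (-0.75 ± 0.46), but was with the replicate block in the 6 arrays alone (adjusted p = 0.0168).

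Genes of cell division and DNA replication were higher on average in KO for all 35 measured, with a median of 0.45 log2, but 2 rose by the test. The mean of the list was 10.65, 10.46 and 10.76 in KO, against 9.93, 10.11 and 10.37 in WT. The lowest KO array was above the highest WT array by less than 0.1 log2. Ube2c, a ubiquitin enzyme of mitosis, rose by 0.94 ± 0.20, and Rrm2, a subunit of ribonucleotide reductase, by 0.46 ± 0.11. The differences of Mcm2 to Mcm7, the replication helicase, were 0.05 to 0.20, and those of Kif20a, Aurka and Ccnb2, genes of mitosis, were 0.99, 0.83 and 0.83, none of them called. With the replicate block 15 rose. The count was 5 without WT replicate 3, 1 without KO replicate 2 or WT replicate 2 and 0 without KO replicate 1, KO replicate 3 or WT replicate 1, or with the Eif2s3y level as a covariate.

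**Figure D3:**
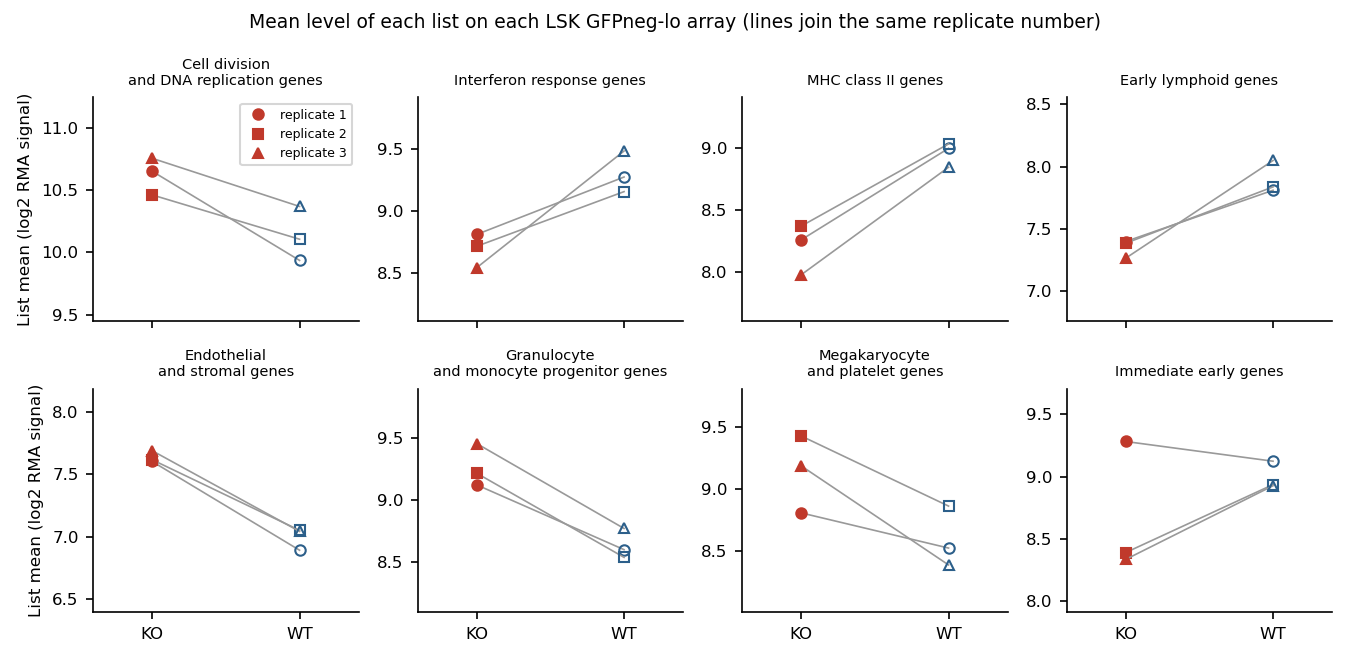
Mean log2 RMA signal of the members of 8 gene lists on each array, KO left and WT right, with lines joining arrays of the same replicate number. The cell division mean is higher and the interferon and class II means are lower in KO for each number, and KO replicate 1 stands apart for immediate early genes.

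Some called genes belong to lists with few changes. Dlk1, a membrane-bound imprinted growth regulator, measured 9.46, 8.57 and 9.23 in KO, against 5.99, 5.95 and 6.06 in WT (3.09 ± 0.26, and 1.71 without probe sets of shared sequence). Meg3, the noncoding RNA of the same imprinted region, rose by 1.63 ± 0.22 (2.55 without probe sets of shared sequence), and it has 10 other probe sets, of which 2 went the other way. Ndn, necdin, an imprinted gene of quiescent cells, measured 8.40, 9.41 and 8.82 in KO, against 10.65, 11.18 and 10.55 in WT (-1.92 ± 0.30, adjusted p = 0.000723). Igf2r, an imprinted receptor that clears growth factor, fell by 0.65 log2. Of 23 measured imprinted genes 2 rose and 2 fell. Without KO replicate 1 or 2 or WT replicate 1 or 3 Igf2r was not called. Pmaip1, a proapoptotic gene, rose by 2.46 ± 0.27, and Socs3, an inhibitor of cytokine signalling, measured 10.07, 10.24 and 10.32 in KO, against 7.53, 8.60 and 8.64 in WT (1.95 ± 0.35). Without probe sets with shared sequence Socs3 was not called (0.726, adjusted p = 0.114). Of 31 NuRD and SWI/SNF genes, the partners of Ikaros, and of 21 immediate early genes, none was called by limma, with 2 and 1 at an unadjusted p below 0.05, and the replicate block called 1 of the partners. Of 27 Polycomb and DNA methylation genes none was called either, with 3 at an unadjusted p below 0.05, and 2 fell with the block.

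Among the largest falls, Cd244a, a receptor of the SLAM family, measured 6.30, 6.10 and 7.20 in KO, against 8.56, 8.09 and 9.37 in WT (-2.14 ± 0.33). Clcf1, a cytokine, fell by 2.11 log2 units, Klhl4 by 1.94 and Dpp4, a surface peptidase, by 1.91, each with KO arrays below WT arrays. Myl10, a myosin light chain, fell by 1.93 and Trim2 by 1.89. Trim2 was not called when probe sets with shared sequence were left out (-0.248, adjusted p = 0.485). Clcf1 has 1 other probe set that went the other way, of 2.

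Many of these genes were also called in the other 3 populations, whose arrays are not shared with this comparison. The tests still share the estimate of spread of each gene, from the same fit of 24 arrays, so they are not independent. Of the 229 that rose here, 175 rose in LSK GFPhi (76.4% of them and 33% of the 530 that rose there), 155 in LK GFPhi (67.7%, and 14.7% of 1051) and 64 in LK GFPneg (27.9%, and 29.2% of 219). Of the 160 that fell here, 97 fell in LSK GFPhi (60.6%, and 31.6% of 307), 63 in LK GFPhi (39.4%, and 9.14% of 689) and 38 in LK GFPneg (23.8%, and 14.4% of 264). The labels call LSK GFPhi cells LMPP (in the field, lymphoid-primed progenitors), LK GFPhi cells GMP (granulocyte and monocyte progenitors) and LK GFPneg cells MEP (megakaryocyte and erythroid progenitors). Among all genes tested, 2.91% rose and 1.69% fell in LSK GFPhi, 5.78% and 3.79% in LK GFPhi, and 1.2% and 1.45% in LK GFPneg. A rise in all 3 was found for 67 genes (0.368% of all genes), of which 42 rose here. Of the genes that rose here, 34 rose in none of the 3 (14.8% of them). A fall in all 3 was found for 30 genes (0.165% of all genes), of which 17 fell here. Of the genes that fell here, 44 fell in none of the 3 (27.5% of them).

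Where the effect in LSK GFPneg-lo differed from that in another population was tested with an interaction. Against LSK GFPhi the effect differed for 57 genes (0.313%), of which 21 had a higher difference here (0.115%) and 36 a lower one (0.198%). Against the mean effect of the other 3 populations it differed for 30 genes (0.165%), 11 higher (0.0605%) and 19 lower (0.104%). Left out in turn, KO LSK GFPneg-lo replicates 2 and 3, WT LSK GFPhi replicate 1 and KO LSK GFPhi replicate 2 took the first count to 35, 30, 34 and 35, and KO LSK GFPneg-lo replicates 1, 2 and 3 took the second to 54, 19 and 19. Of these, 22 of the 57 and 15 of the 30 were called in LSK GFPneg-lo itself.

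**Figure D4:**
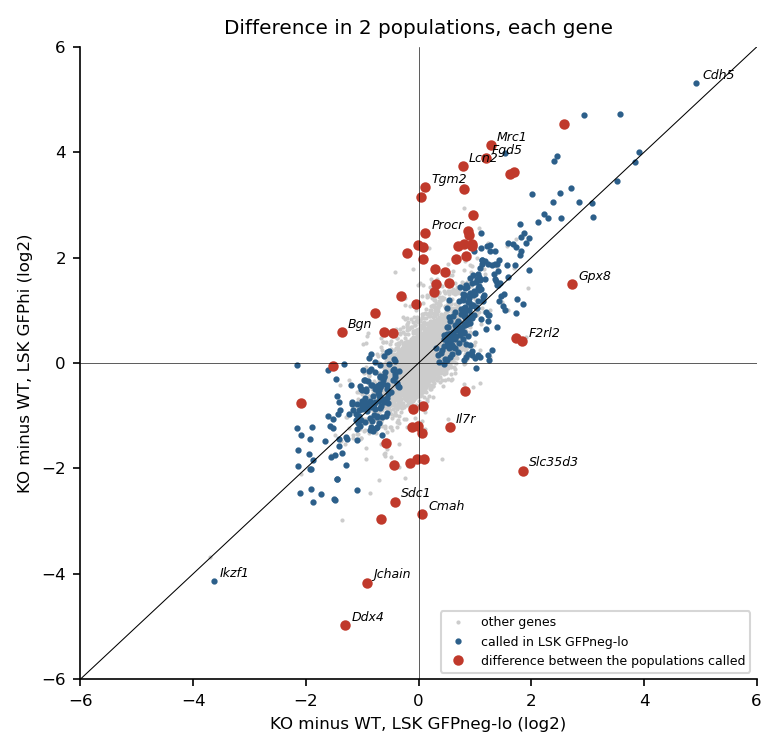
Difference, KO minus WT, of each of 18193 genes in LSK GFPneg-lo (horizontal) and LSK GFPhi (vertical), both log2, with red for the 57 genes whose difference itself passed the test. Cdh5 lies near the diagonal at the top right, while Slc35d3 and Fgd5 lie away from it.

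The rise of Cdh5 was larger than the mean of the other 3 (1.41 ± 0.15, adjusted p = 6.55e-05). It was 4.93 here, 5.32 in LSK GFPhi, 4.72 in LK GFPhi and 0.53 in LK GFPneg. Against LSK GFPhi alone the interaction was -0.39 and not called. KO arrays read 9.66 to 9.85 in LSK GFPneg-lo, 10.21 to 10.39 in LSK GFPhi, 9.33 to 9.81 in LK GFPhi and 5.30 to 5.80 in LK GFPneg, against 4.72 to 5.10 on the 12 WT arrays of the 4 populations. F2rl2 rose by 1.84 here and differed by 0.41, 0.16 and 0.51 in LSK GFPhi, LK GFPneg and LK GFPhi (interaction 1.48 ± 0.23). Gpx8 rose by 2.73 here, by 1.50 in LSK GFPhi and by 1.20 in LK GFPhi, and was not called in LK GFPneg (0.38) (interaction 1.70 ± 0.20). Slc35d3, a transporter-like protein of platelet dense granules, measured 6.13, 8.46 and 8.28 in KO, against 5.86, 5.55 and 5.91 in WT, while in LSK GFPhi the KO arrays read 5.53 to 5.79 and the WT arrays 7.35 to 7.94. KO replicate 1 was close to the WT arrays, and the call here was lost without each of KO replicates 2 and 3 and the 3 WT arrays (adjusted p = 0.108 to 0.253). Its interaction against LSK GFPhi kept the call under all 20 alternatives run for it.

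Some interactions came from a larger or opposite difference in GFPhi populations. Fgd5 rose by 1.19 here, and by 3.90 in LSK GFPhi and 4.77 in LK GFPhi, and was not called in LK GFPneg (0.52, adjusted p = 0.541). Its KO arrays read 10.80 to 11.66 here, against 9.43 to 10.25 on WT arrays, and in LSK GFPhi KO arrays read 11.17 to 11.45, against 7.37 to 7.52 on WT arrays. The interaction of Fgd5 against LSK GFPhi was -2.70 ± 0.37, and that against the other 3 was lost without KO replicate 3 (adjusted p = 0.0549). Procr read 11.30 to 11.59 on the KO arrays of LSK GFPhi, against 8.39 to 9.29 on the WT arrays there, a rise of 2.48. It was not called here (0.12 ± 0.27) or in LK GFPneg (0.03). Its interaction against the mean of the other 3 was -1.59 ± 0.31 (adjusted p = 0.0343), which was lost without KO replicate 2 or 3 or WT replicate 1 or 3 of LSK GFPneg-lo (adjusted p = 0.0615 to 0.201), among others. Bgn, a matrix proteoglycan, fell by 1.36 ± 0.20 here, whereas its difference was 0.59 in LSK GFPhi (interaction -1.96 ± 0.29). Il7r, the receptor for a lymphoid cytokine, was 0.55 ± 0.26 here against -1.22 in LSK GFPhi, -2.78 in LK GFPhi and 0.03 in LK GFPneg (interaction against the other 3 of 1.88 ± 0.30). Rag1, Cd34, Kit and Gata2 had no called difference in LSK GFPneg-lo.

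**Figure D5:**
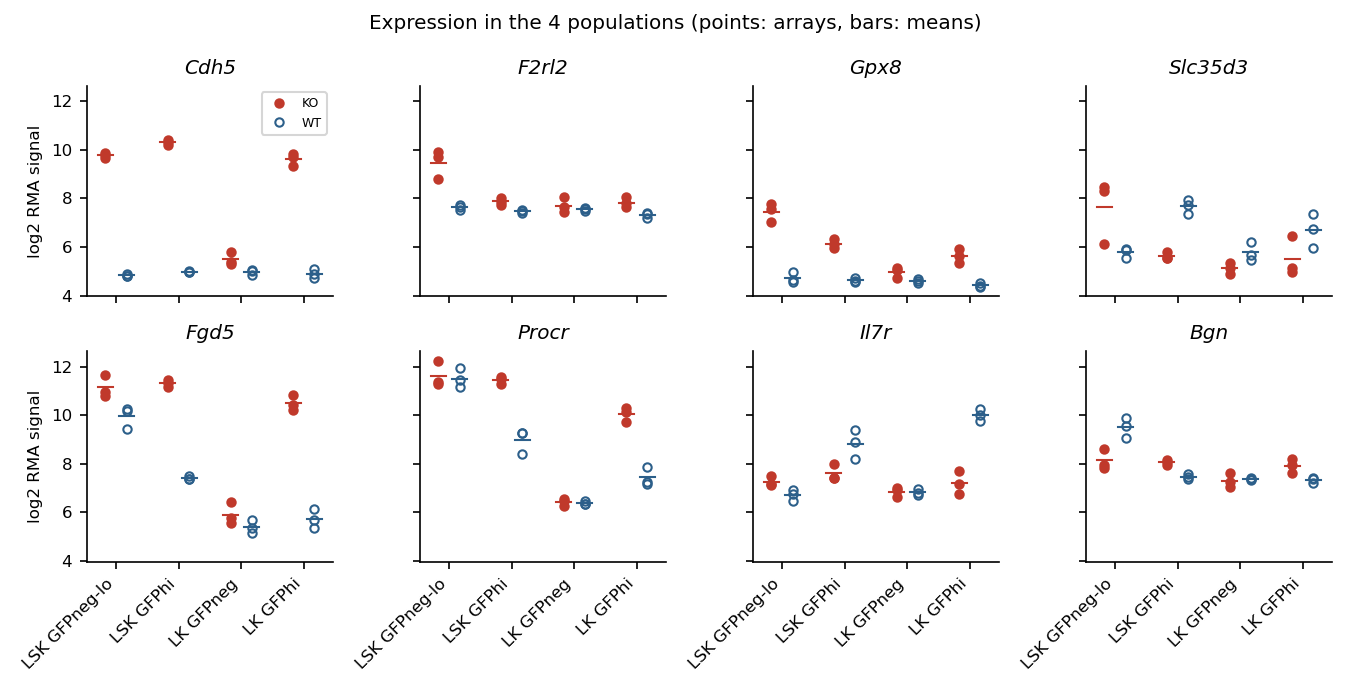
Log2 RMA signal of 8 genes in the 4 populations (filled red, KO; open blue, WT; points, arrays; bars, means of 3). F2rl2 and Gpx8 have their highest means in KO LSK GFPneg-lo (9.47 and 7.46), and for Fgd5 and Procr WT LSK GFPneg-lo stands above the other WT populations.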

How the data were processed

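The study measured total RNA of sorted mouse blood progenitors on 24 Affymetrix arrays, and the 6 arrays of LSK GFPneg-lo cells are compared here. RMA was used to process the arrays, per the submitters' processing notes. Judged by their range, the deposited values are on a log2 scale; the version of RMA was not given in the sources used here. Of 45101 probe sets, 64 controls, 932 with several gene symbols and 9160 with none were left out, and the probe set with the highest mean stood for each of 18193 genes. Gene names come from the platform annotation; 34741 of 34945 probe sets with 1 symbol matched RefSeq by Entrez ID.

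limma 3.58.1 (R 4.3.3; lmFit and eBayes) fitted 8 group means to all 24 arrays (residual degrees of freedom 16, prior 3.27) and gave KO minus WT and its interactions. P-values are two-sided. Exact permutation of 3 against 3 arrays cannot go below 0.1. On simulated data for KO against WT over 18193 genes, 31.3, 86.6 and 95.5% of changes of 0.5, 1 and 2 log2 units were recovered, with 3.4% false calls. The simulated noise was independent between arrays, with the same spread in every group and no effect of array or replicate number. The 3.4% is therefore not an estimate of false calls in the measured data. The number of arrays limits the precision.

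The members, the 35 gene lists and the tests were chosen with earlier results of these data known. Named genes were the 12 largest rises and falls with arrays that do not overlap, up to 4 called members of a list, 6 genes each way in each interaction and a panel of 29, of which 26 were measured. Col4a1, Tie1, Kdr, Nos3, F13a1, uncalled list members and the sex-linked genes were named after their values were seen. Lists are described by counts and medians, with no set test. Arrays with the same number in KO and WT had residuals that correlated at r = 0.54, 0.489 and 0.276. With another number r was at most 0.0153. Residuals cancel within each group, so a positive r for the same number pushes the others down. The contrast with other numbers is therefore partly built in and cannot decide whether the numbers pair the arrays. The reported differences come from the fit without the replicate number. The replicate block was run as an alternative. It assumes pairing from the same-numbered values (threshold 0.1 for every pair) and is given where it matters. In LSK GFPhi 1 pair was below that threshold (r = 0.0238). Alternatives covered the arrays fitted, the block, the probe set, filters, eBayes settings, array weights, scaling, the threshold, Eif2s3y and each array left out. Promoter windows are from RefSeq.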

Additional observations from a re-analysis of the deposited data

Results flagged for a closer look

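The genes here had a KO minus WT difference in LSK GFPneg-lo cells that differed from the difference in other populations, by the limma interaction test itself. Each value is the difference in LSK GFPneg-lo minus that in the other population, in log2 units.

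Against LSK GFPhi, the genes with a higher difference in LSK GFPneg-lo were Slc35d3 (3.89), Ddx4, a helicase of germ cells (3.67), Jchain, which joins immunoglobulin units (3.25), Cmah (2.92), Igkv8-30 (2.29), Sdc1 (2.21), Il7r (1.77), F2rl2 (1.43) and Gpx8 (1.23). Ddx4, Jchain, Cmah, Igkv8-30 and Sdc1 were not called in LSK GFPneg-lo (-1.30, -0.92, 0.06, -0.67 and -0.43 log2). They fell in LSK GFPhi (-4.97, -4.17, -2.87, -2.96 and -2.63), as did Il7r, also not called in LSK GFPneg-lo. Genes with a lower difference were Tgm2 (-3.22), Phldb2 (-3.11), Lcn2 (-2.95), Mrc1 (-2.85), Fgd5 (-2.70), Nrp1 (-2.49), Procr (-2.36), Mamdc2 (-2.30), Meg3 (-1.96), Bgn (-1.96), Selenom (-1.94) and Esam (-0.97). Tgm2, Phldb2, Lcn2, Mrc1, Procr and Mamdc2 were not called in LSK GFPneg-lo and rose in LSK GFPhi (by 2.10 to 4.14). Without probe sets of shared sequence the interaction of Tgm2 was -0.192 and lost (adjusted p = 0.9999). With 1 array left out, that of Jchain was lost for 6 arrays (adjusted p = 0.0646 to 0.0771), that of Igkv8-30 for 4 (0.0595 to 0.0707) and that of Mrc1 for 9 (0.0581 to 0.0906). Meg3, Selenom, Esam, Fgd5 and Nrp1 rose in both populations, with the smaller rise in LSK GFPneg-lo. The call of Nrp1 in LSK GFPneg-lo (adjusted p = 0.0375) was lost with each of its 6 arrays left out (0.0524 to 0.192) and with the Eif2s3y level as a covariate (0.268).

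Against the mean of the other 3 populations, the higher differences were those of Slc35d3 (3.14), Cmah (1.95), Il7r (1.88), Gpx8 (1.70), F2rl2 (1.48) and Cdh5 (1.41). The lower ones were those of Lcn2 (-2.08), Phldb2 (-2.003), Fgd5 (-1.87), Mamdc2 (-1.76), Bgn (-1.73), Procr (-1.59) and Dmxl2 (-1.25). Among LSK GFPneg-lo arrays, the interaction of Mamdc2 was lost without KO replicate 2 or 3 or WT replicate 1 or 3 (adjusted p = 0.0637 to 0.201), that of Phldb2 without KO replicate 2 (0.059) or WT replicate 1 (0.0561) and that of Slc35d3 without KO replicate 2 or 3 or WT replicate 2 (0.0576 to 0.0885). The interaction of Mamdc2 was also lost with the Eif2s3y level as a covariate (0.0574) and without single arrays of the other populations (0.05 to 0.0684). Lcn2, a neutrophil granule protein, read 4.82 to 5.51 on the KO arrays of LSK GFPneg-lo, against 4.37 to 4.49 on the WT arrays, and in LK GFPhi 9.47 to 10.61 on the KO arrays, against 4.51 to 6.12 on the WT arrays.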

How the results depend on the processing

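Every named gene that was called kept the direction of its KO minus WT difference under the 17 or 18 alternatives run for it, except that Ccnd3 was -0.33 with the probe set of largest spread and Ctnnal1 was -0.0282 without probe sets ending in _x_at or _s_at. For both the other probe set is the change that the alternative makes. Ikzf1 kept its call throughout and was -3.88 to -3.49 with each array left out. Of the 71 named genes called, 23 kept the call under every alternative run for them, and 65 could be tested with the dimmest probe sets left out; 26 lost it with the 6 arrays fitted alone, 26 with the Eif2s3y level as a covariate and 40 with KO replicate 2 as the only KO array, an alternative chosen after seeing the data. The replicate block in the fit of 24 arrays lost none of these calls and added those of Flt3, Itga2b and Ddx4; in the 6 arrays alone it lost 4 and added 9. Same-numbered arrays correlated at r = 0.0238 for replicate 3 of LSK GFPhi, so there the numbers are not shown to pair the arrays. In the other populations pairing by number is an assumption too.

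The 389 calls (229 higher, 160 lower) became 199 (114, 85) with the 6 arrays alone, 844 (501, 343) with the replicate block, 962 (583, 379) with the block in the 6 arrays alone, 1120 (624, 496) with array weights, 210 (125, 85) with Eif2s3y as a covariate, 213 (127, 86) at a threshold of 0.01, 172 (105, 67) with a 2-fold minimum and 144 (92, 52) with KO replicate 2 alone. With each array left out they were 232 to 357 (132 to 205, and 93 to 158). The interaction against LSK GFPhi, 57 (21 higher, 36 lower), became 97 (71 lower) with the block, 133 (46, 87) with array weights and 27 (9, 18) at 0.01, with 11 higher when the dimmest 40% of probe sets were left out, and 30 to 69 (10 to 20, and 18 to 49) with arrays left out. That against the other 3 populations, 30 (11, 19), became 163 (70, 93) with the block, 158 (62, 96) with array weights and 16 (8 lower) at 0.01, and 19 to 54 (8 to 21, and 9 to 38) with arrays left out. The causes were not tested. Other alternatives stayed within 1.5 times of these counts.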

Other observations

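Beside the counts in this section, 2.14% of all genes were called (1.26% rose and 0.879% fell). Genes of Hox clusters and their partners were called for 2 of 17 measured: Hoxb5 rose by 0.90 ± 0.17 log2 and Hoxa10 fell by 0.84 ± 0.19. Hoxa10 lost the call without KO replicate 2 or 3 or WT replicate 2 or 3. Among 19 erythroid genes Trib2, a pseudokinase, fell by 1.06, and Gata1, Klf1 and Epor, which drive red cell formation, were not called (0.46, 0.30 and 0.29). The call of Trib2 was lost when probe sets with shared sequence were left out (adjusted p = 0.966). Ldhb, a lactate dehydrogenase subunit, fell by 0.92 ± 0.18 among 20 glycolysis genes, with every KO array below every WT array, and Gstm2 was the 1 called gene of 29 for glutathione and detoxification.

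Cell cycle regulators other than the cell division list were called for 2 of 15. Ccnd3, a D cyclin, rose by 0.58 ± 0.14, and Cdkn2c, an inhibitor of the D cyclin kinases, fell by 0.96 ± 0.20. Cdkn2c measured 9.26, 9.19 and 8.84 in KO cells, against 10.16, 9.76 and 10.24 in WT cells. Ccnd3 lost the call with each of the 6 arrays left out, and Cdkn2c lost it without KO replicate 3 or WT replicate 1 or 3. Cdkn1a and Cdkn1c, other inhibitors, were not called (0.20 ± 0.26 and -0.17 ± 0.21).

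Of 20 Notch pathway genes, 1 rose (Nrarp, an inhibitor of the pathway, 0.67) and 1 fell (Notch2, a receptor, -0.68). Nrarp lost the call with each of the 6 arrays left out (adjusted p = 0.059 to 0.202), and Notch2 with each but KO replicate 1 (0.0698 to 0.15). Among 34 integrins and adhesion receptors, 5 rose and 1 fell, Icam1, a ligand of leukocyte integrins (-0.87 ± 0.16). The risers include Cdh5, Thy1, Selp and Itgb3, which were already counted in lists above. Of 20 lipid transport and sterol genes 3 rose, among them Lpl, which hydrolyses triglycerides (1.96 ± 0.40). Lpl lost the call without WT replicate 1 (adjusted p = 0.0551) or KO replicate 3 (0.0736). Of 21 chemokine receptors and ligands Ccl9 alone was called (-1.01 ± 0.23), and it lost the call without WT replicate 1 or 3 or KO replicate 2 or 3 (adjusted p = 0.0599 to 0.134). Of 27 cytokine receptors and STAT inhibitors Csf1r and Socs3 rose, and of 19 apoptosis regulators Pmaip1 and Bok (0.55 ± 0.12), both proapoptotic, rose, Bok losing the call without WT replicate 1 or 2 or KO replicate 1 or 3 (adjusted p = 0.0583 to 0.125). By limma none of 6 eosinophil genes and none of 7 E protein and Id genes was called, with 1 of each at an unadjusted p below 0.05.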
